A study of Mus musculus with 8 samples.

Results

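Oligodendrocytes of mice without microglia (KO) were compared with those of wild-type mice (WT) inside Oligo3, the most populous of the oligodendrocyte clusters in the deposited cell annotation. The members were all cells carrying cluster number 3 there, 7579 of 12581 cells, of which 4363 came from WT and 3216 from KO libraries. KO cells that the clustering placed elsewhere, Oligo1 included, do not enter, and the clusters were themselves made from the expression of all genes.

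The KO mice carry a germline deletion of *Fire*, an enhancer in an intron of *Csf1r*, on both alleles (Fire Δ/Δ), and the WT mice are Fire +/+. KO mice of this line lack microglia from development on but keep other brain macrophages, such as those around vessels. Females WT mouse 1, WT mouse 4, KO mouse 3 and KO mouse 6 each gave 1 library of the hippocampus and 1 of the rest of the left hemisphere without olfactory bulb and cerebellum, called cortex here. Cells were dissociated with actinomycin D, sorted for viable singlets, and read as 3′ transcript ends counted by unique molecular identifiers (UMIs), each standing for 1 captured RNA molecule. WT mouse 1 and KO mouse 3 had an exit age of 1 month and 18 days, and WT mouse 4 and KO mouse 6 one of 1 month and 16 days. Each of the 4 batches in the annotation, numbered 3 to 6, held 1 WT and 1 KO library of the same tissue: mice 1 and 3 in batches 3 (hippocampus) and 4 (cortex), mice 4 and 6 in batches 5 (hippocampus) and 6 (cortex). The comparison asks how oligodendrocytes of a state shared by both genotypes differ when microglia are absent.

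Oligodendrocytes wrap axons in myelin, a membrane rich in cholesterol, galactolipids and a few abundant proteins such as myelin basic protein. Microglia are the resident macrophages of the brain parenchyma and depend on signalling through the receptor CSF1R. Oligodendrocytes can also switch on immune genes, among them complement component C4 and the protease inhibitor Serpina3n, in inflamed, ageing and diseased tissue.

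Values are the deposited log2 values, log2 of UMI count divided by the size factor of the cell plus 1, averaged over the Oligo3 cells of a library and then over both libraries of a mouse. Where 4 values are listed, they are hippocampus and cortex of WT mouse 1 and then of WT mouse 4, or hippocampus and cortex of KO mouse 3 and then of KO mouse 6. A difference on this scale is KO minus WT and understates the relative change of a gene with few UMIs. The mouse is the replicate (n = 2 per genotype), and a gene is said to have risen or fallen only with a Benjamini-Hochberg adjusted p under 0.05 by limma, fitted within the pairs of mice that share batches.

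The cells carried the identity that their label gives. The 4 oligodendrocyte markers, *Mog*, *Mag* and *Mbp* among them, made up 52248, 52599, 62049 and 58928 of every 1000000 UMIs (CPM) in WT and 52906, 54589, 57693 and 59050 in KO libraries. The genotypes overlapped in these sums, and mice 4 and 6 were higher than mice 1 and 3. *Mbp*, the gene of myelin basic protein, averaged 5.26, 5.34, 5.20 and 5.27 in WT and 5.32, 5.47, 5.12 and 5.25 in KO libraries.

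Depth was alike between genotypes on average. Oligo3 held 1846, 990, 702 and 825 WT cells with a median of 9097.5, 12007, 12827 and 10605 UMIs each, and 1218, 604, 887 and 507 KO cells with a median of 8883, 13178.5, 10167 and 12499. Averaged per mouse, KO cells had 11182 ± 214 (SD, n = 2) and WT cells 11134 ± 823 UMIs (exact permutation p = 1, where 2 mice against 2 cannot give a p under 0.333). KO libraries were deeper than their batch partner in both cortex batches, by 1171.5 and 1894 UMIs, and shallower in both hippocampus batches. The median number of genes per cell was 3333 in KO and 3334.5 in WT mice (exact p = 1), and the median mitochondrial share 5.74% and 5.63% (exact p = 0.667). Across libraries 21 cell barcodes were shared, 8 of them among Oligo3 cells, where 16 cells carried them.

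*Csf1r* (chromosome 18, 61100598 to 61132149, plus strand, GRCm38), the receptor gene whose enhancer is deleted, was found in WT but hardly in KO cells. A *Csf1r* UMI was seen in 103 of 1846 (5.58%), 57 of 990 (5.76%), 35 of 702 (4.99%) and 83 of 825 (10.1%) WT cells. In KO it was seen in 0 of 1218, 1 of 604, 0 of 887 and 0 of 507 cells, where the counts of 0 have upper 95% limits of 0.302%, 0.415% and 0.725% (floors of 3 cells at 0.246%, 0.338% and 0.592%). The genotype labels and *Csf1r* thus went together in all 8 libraries. The deleted enhancer is intronic and not part of the transcript, so these UMIs do not read the deletion itself, and their source was not tested.

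Within Oligo3, few genes passed the threshold between the genotypes. With 2 mice per genotype, a gene that did not pass may still differ. Of 9135 genes tested, 5 passed the threshold (0.0547%). *C4b*, *Serpina3n* and *Gm47283* rose in KO cells (3 genes, 0.0328%), and the long noncoding RNA *9330117O12Rik* and the microglial gene *C1qa* fell (2 genes, 0.0219%). All 5 had the same sign in each of the 4 batches, which held for 16.9% of all genes tested, and 4 of them had no overlap between the WT and KO libraries, which held for 1.93% of all genes tested. The median difference over all genes was 0.00017 with quartiles of -0.0103 and 0.0101.

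At an unadjusted p under 0.05 limma gave 474 genes (5.19%), 245 of them higher in KO (2.68%) and 229 lower (2.51%). KO cells had the higher mean for 50.6% of all genes. On UMI sums per mouse, edgeR's quasi-likelihood test called 4 genes, 3 of them among the 5 (*C4b*, *9330117O12Rik* and *C1qa*), with *C1qb* as the other. DESeq2 called 8, among them all of the 5 but *Gm47283*, and also *C1qb*, *Cebpd*, *Plin3* (higher) and *Bfsp2* (lower), where *Plin3* and *Bfsp2* are named only for having been called. Without the pairing of mice *C4b* alone passed by limma, so the calls of the other 4 genes rest on the comparison within pairs.

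*C4b*, which encodes complement component C4 of the classical and lectin pathways, rose most. It was low in every WT library and several times higher in every KO library, in hippocampus and cortex alike. In CPM, KO mice held 11.3 times the level of WT mice. About a KO cell in 3 carried a *C4b* UMI, against fewer than 1 WT cell in 8 in any library.

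*C4b* (chromosome 17, 34728380 to 34743882, minus strand, GRCm38) averaged 0.0504, 0.0576, 0.12 and 0.060 in the WT libraries and 0.67, 0.34, 0.50 and 0.67 in the KO libraries. The lowest KO library, the cortex of mouse 3, lay well above the highest WT library, the hippocampus of mouse 4. The difference was 0.47 (SE 0.0182, limma adjusted p = 0.000225), with 0.62, 0.28, 0.38 and 0.61 in batches 3 to 6, so that KO was higher in 4 of 4 batches. In CPM the WT libraries had 6.59, 8.39, 18.5 and 9.02 and the KO libraries 153, 66.3, 112 and 151. On those sums edgeR gave a log2 fold change of 3.61 (adjusted p = 0.00813) and DESeq2 one of 3.61 (adjusted p = 9.89e-61).

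More KO cells carried the transcript, and those that did carried more of it. The share of cells with a *C4b* UMI was 4.71% (95% Clopper-Pearson interval 3.79 to 5.78), 5.25% (3.95 to 6.83), 11.8% (9.53 to 14.4) and 5.70% (4.22 to 7.50) in WT. It was 35.7% (33.0 to 38.5), 22.4% (19.1 to 25.9), 30.2% (27.2 to 33.4) and 41.2% (36.9 to 45.7) in KO. The intervals of the genotypes did not meet, and they cover counting error only. With each cell thinned to 5000 UMIs the shares were 2.87%, 3.54%, 5.84% and 2.67% in WT and 28.9%, 14.6%, 23.7% and 29.8% in KO, the same order of genotypes at equal depth. A positive cell held 1.32, 1.94, 2.02 and 1.72 UMIs on average in WT and 3.99, 3.93, 3.86 and 4.64 in KO libraries. Cells with 5 or more *C4b* UMIs were 0.108%, 0.404%, 1.14% and 0.485% of WT and 11.7%, 5.63%, 8.46% and 15% of KO cells, again without overlap.

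*C4b* has a close paralog in *C4a*, so some UMIs may have been assigned to the other gene, and *C4a* itself averaged between 0.00504 and 0.0127 over the 8 libraries. The matrix used here holds oligodendrocytes alone, so the share that free RNA gives in another cell type at these depths was not measured, and its part in the WT share was not tested. Within the libraries of 1 tissue alone, *C4b* kept its size but passed no threshold (limma adjusted p = 0.408 in hippocampus and 0.777 in cortex, where the range over all alternatives was 9.89e-61 to 0.777).

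*Serpina3n*, an inhibitor of serine proteases secreted in acute-phase responses, rose together with *C4b* but at a much lower level. It was in 0.909% to 5.13% of the cells of a WT library and in 6.95% to 12.9% of those of a KO library. In CPM the WT libraries had 1.26, 0.831, 5.07 and 1.78 and the KO libraries 20.8, 7.24, 15.7 and 14.5, and the hippocampus of WT mouse 4 and the cortex of KO mouse 3 came closest.

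*Serpina3n* (chromosome 12, 104406729 to 104414329, plus strand, GRCm38) averaged 0.00962, 0.00677, 0.0405 and 0.0125 in WT and 0.15, 0.0607, 0.11 and 0.11 in KO libraries. The cortex of KO mouse 3 was again the lowest KO library and the hippocampus of WT mouse 4 the highest WT library, and the genotypes did not overlap. The difference was 0.0901 (SE 0.00620, limma adjusted p = 0.00562), KO being higher in 4 of 4 batches by 0.14, 0.0539, 0.0730 and 0.0981. DESeq2 gave a log2 fold change of 2.96 (adjusted p = 4.86e-08) and edgeR one of 2.91 that did not pass (adjusted p = 0.245).

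By cells, a *Serpina3n* UMI was present in 1.08% (0.663 to 1.67), 0.909% (0.417 to 1.72), 5.13% (3.62 to 7.03) and 1.45% (0.754 to 2.53) of WT cells. In KO the shares were 12.9% (11.1 to 14.9), 6.95% (5.06 to 9.28), 12.3% (10.2 to 14.6) and 12.6% (9.86 to 15.8). The interval of WT mouse 4 hippocampus overlapped only that of KO mouse 3 cortex. Thinned to 5000 UMIs, the shares were 0.379%, 0.404%, 2.85% and 0.727% in WT and 8.62%, 3.31%, 6.99% and 5.33% in KO cells. *Serpina3n* belongs to a family of similar genes, so part of its UMIs may come from or have gone to other members. Without the pairing of mice its limma adjusted p was 0.117, within 4.86e-08 to 0.882 over its alternatives.

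A small group of cells carried both transcripts. Cells with UMIs of both *C4b* and *Serpina3n* were 0.0542%, 0.303%, 1.71% and 0.121% of WT and 8.21%, 4.64%, 7.67% and 8.28% of KO cells, 7.20% in KO and 0.547% in WT mice on average (exact p = 0.333, the smallest possible). KO libraries were all above WT libraries in this share. They were fewer than the cells with a *C4b* UMI in each KO library, so most KO cells with *C4b* had no *Serpina3n* UMI.

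**Figure D1:**
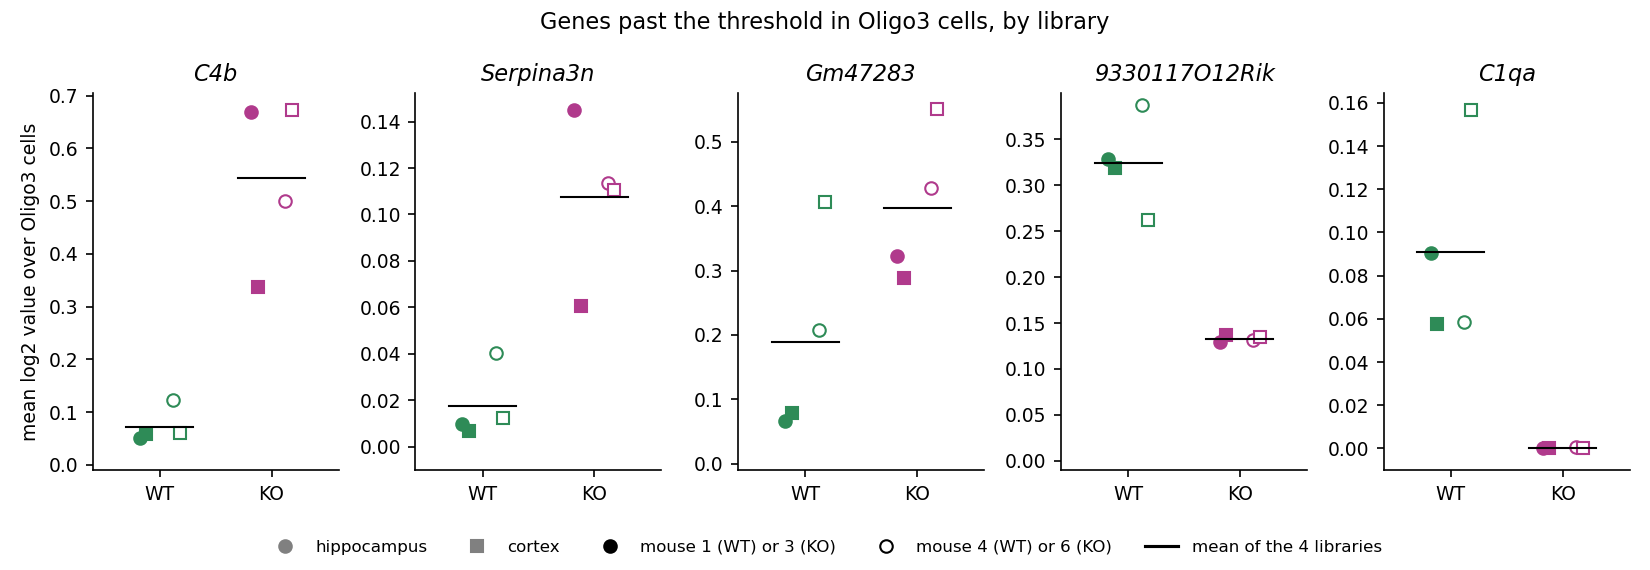
Mean log2 value in Oligo3 cells of the 5 genes past the threshold, by library; green points are WT and purple points KO, circles hippocampus and squares cortex, filled points mice 1 and 3 and open points mice 4 and 6, and lines the mean of 4 libraries. *C4b* spans 0.0504 to 0.12 in WT and 0.34 to 0.67 in KO, and only *Gm47283* overlaps between genotypes.

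*9330117O12Rik*, a long noncoding RNA without an assigned role, fell in KO cells to about 0.4 of its WT level. Every KO library lay near 0.13, with little spread, and every WT library at 0.26 or above. The gene sits on the chromosome of *Csf1r*.

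*9330117O12Rik* (chromosome 18, 54611744 to 54639870, RefSeq GRCm38.p6) averaged 0.33, 0.32, 0.39 and 0.26 in WT and 0.13, 0.14, 0.13 and 0.13 in KO libraries. KO was lower in 4 of 4 batches with no overlap. The difference was -0.19 (SE 0.0136, limma adjusted p = 0.00562), and edgeR (log2 fold change -1.39, adjusted p = 0.0109) and DESeq2 (-1.39, adjusted p = 6.59e-08) also called it. In CPM, WT mice had 42.4 and KO mice 16.2, a WT to KO ratio of 2.62. Its share of positive cells was 32.1%, 36.6%, 44.4% and 27.6% in WT and 13.5%, 18.7%, 14.9% and 17.4% in KO libraries. Thinned to 5000 UMIs these became 19.1%, 19.6%, 20.5% and 13.2% in WT and 7.96%, 7.78%, 8.34% and 6.31% in KO cells, without overlap between the genotypes. The limma call was lost on the thinned counts (difference -0.16, adjusted p = 0.0833, where the range over its alternatives was 6.59e-08 to 0.777).

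The genes around the deleted enhancer were counted, and their difference from other genes was not tested. *9330117O12Rik* lies 6.46 Mb from *Csf1r*. Within 10 Mb of *Csf1r*, 62 genes were tested, 1 passed, and 13 had an unadjusted p under 0.05 (21.0%, against 5.19% of all genes), 6 of them higher and 7 lower in KO. On the rest of chromosome 18, 11 of 182 tested genes did (6.04%) and 0 passed by limma. The median difference was -0.000896 inside the window and -0.00282 outside. Linked alleles around the edited locus and the absence of microglia cannot be told apart here, since both go with the KO label.

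*Gm47283*, a predicted gene with a single annotated locus on chromosome Y (90784738 to 90816464, plus strand, GRCm38), had a higher value in KO than in WT within every batch. The mice were female, so its UMIs may come from a similar sequence elsewhere, and the source was not tested. It averaged 0.0660, 0.0794, 0.21 and 0.41 in WT and 0.32, 0.29, 0.43 and 0.55 in KO libraries. WT mouse 1 was low, and the cortex of WT mouse 4 lay above both libraries of KO mouse 3, so the genotypes overlapped.

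The *Gm47283* difference was 0.21 (SE 0.0182, limma adjusted p = 0.0164), with 0.26, 0.21, 0.22 and 0.15 in batches 3 to 6. Cells with a UMI were 7.48%, 10.4%, 26.8% and 42.4% of WT and 31.6%, 34.6%, 42.8% and 58.4% of KO cells. The spread between the WT mice was as wide as the step between genotypes. The call was lost when WT mouse 1 (difference 0.0907) or KO mouse 6 (0.12) was left out. The difference was 0.30 without KO mouse 3 and 0.32 without WT mouse 4. Neither edgeR (adjusted p = 0.729) nor DESeq2 (adjusted p = 1) called *Gm47283*.

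*C1qa*, a subunit of complement C1q that microglia make in the brain, was absent from KO cells but for a single cell. Every WT library had it at a low level, highest in the cortex of mouse 4. The other microglial genes followed the same pattern.

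*C1qa* (chromosome 4, 136895917 to 136898803, minus strand, GRCm38) averaged 0.0907, 0.0574, 0.0585 and 0.16 in WT libraries, and 0, 0, 0.00087 and 0 in KO libraries. The difference was -0.0906 (SE 0.00813, limma adjusted p = 0.0164), KO being lower in 4 of 4 batches, and edgeR (adjusted p = 0.00593) and DESeq2 (adjusted p = 7.91e-06) called it too. A UMI was seen in 9.21% (7.93 to 10.6), 7.27% (5.73 to 9.07), 8.40% (6.46 to 10.7) and 17.2% (14.7 to 20) of WT cells. In KO it was in 0 of 1218, 0 of 604, 1 of 887 and 0 of 507 cells, and the zeros have upper 95% limits of 0.302%, 0.609% and 0.725%.

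Of the 11 microglial markers, 3 were common enough to test. *C1qa* fell, and *C1qb*, a further C1q subunit, had a difference of -0.0928 (limma adjusted p = 0.0720, edgeR 0.00539, DESeq2 2.39e-08, lower in 4 of 4 batches). All 3 had a lower KO mean and an unadjusted p under 0.05, and their median was -0.0928.

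Summed, the 11 markers gave 98.9, 76.7, 60.0 and 163 CPM in WT and 19.9, 21.1, 15.2 and 17.1 in KO libraries. Every WT sum lay above every KO sum, and since not all markers of the list are confined to microglia, the KO sums do not measure microglia alone. A UMI of any of the 11 was found in 55.6%, 55.8%, 53.7% and 76.6% of WT and 16.1%, 24.8%, 13.6% and 17.2% of KO cells. *Cx3cr1*, the fractalkine receptor, was in 3.63%, 5.15%, 5.56% and 10.9% of WT cells but in only 1, 1, 0 and 0 KO cells. *P2ry12*, a purinergic receptor, was in 4.50%, 4.24%, 4.27% and 8.97% of WT cells and in 0, 0, 1 and 0 KO cells. *Tmem119* was in 1.68%, 1.62%, 2.56% and 4.00% of WT cells and had no UMI in KO. The WT cortex of mouse 4 was highest in each of these.

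Microglial RNA thus moved with genotype in the same libraries as the *C4b* result. In cells without any UMI of the 11 markers, *C4b* averaged 0.0429, 0.0580, 0.11 and 0.0336 in WT and 0.67, 0.34, 0.49 and 0.68 in KO libraries. The difference there was 0.48 (SE 0.0223, limma adjusted p = 2.10e-05), as large as over all cells. *Serpina3n* differed by 0.0877 and *9330117O12Rik* by -0.19 in those cells, both past the threshold (limma adjusted p = 0.00309).

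**Figure D2:**
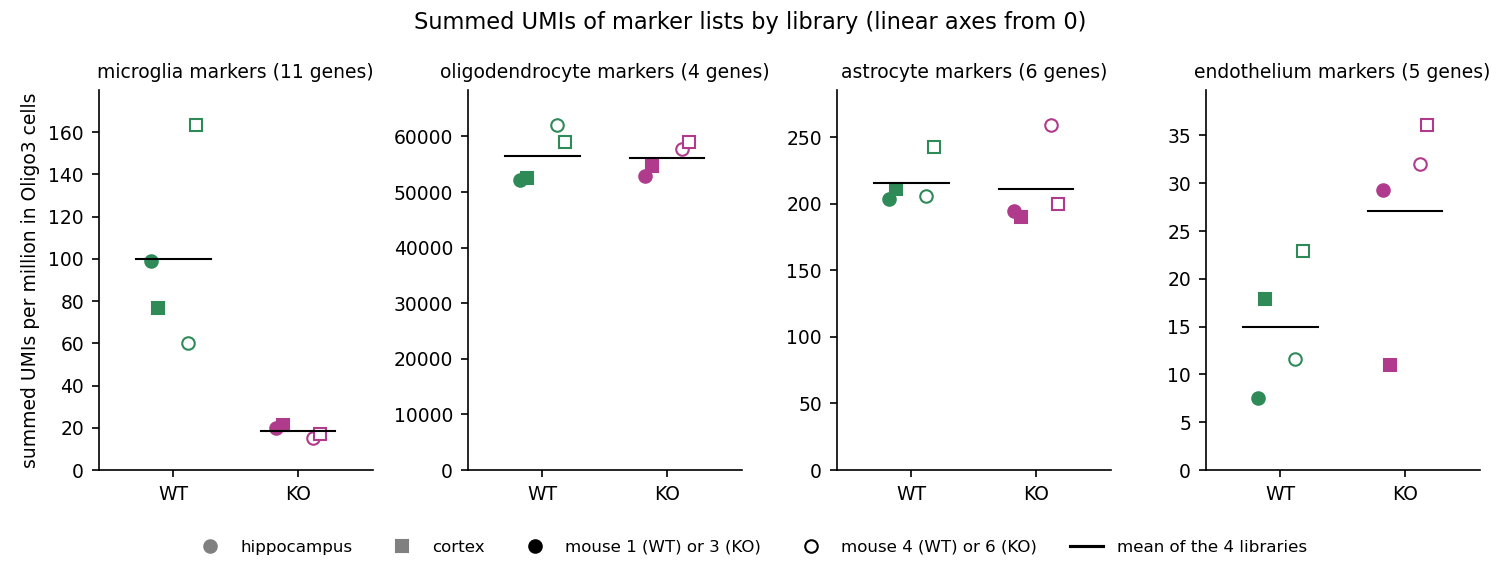
Summed CPM in Oligo3 cells of 4 marker lists, by library, on linear axes from 0, with symbols as in the plot of the genes past the threshold. Microglial sums are 60.0 to 163 in WT and 15.2 to 21.1 in KO, while oligodendrocyte and astrocyte sums overlap.

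Markers of other cells did not separate the genotypes in this way. The 6 astrocyte markers summed to 204, 211, 206 and 243 CPM in WT and 195, 190, 259 and 200 in KO libraries, led by the glutamate transporter *Slc1a2*. By limma 0 of 6 passed, 1 had an unadjusted p under 0.05, and their median difference was -0.00385. Astrocyte levels therefore overlapped, with the hippocampus of KO mouse 6 highest. Of the oligodendrocyte markers 0 of 4 passed (0 at an unadjusted p), with a median of -0.000164.

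Progenitor and neuronal markers varied with tissue or library. The 4 markers of oligodendrocyte progenitors summed to 31.1, 19.4, 21.2 and 27.8 in WT and 51.5, 30.1, 36.4 and 16.8 CPM in KO libraries, and only *Ptprz1* was tested (0.0191, not passed). The 4 neuronal markers, led by *Meg3*, summed to 66.3, 11.9, 23.7 and 12.2 in WT and 61.6, 10.9, 79.8 and 13.8 in KO libraries, and only *Snap25* was tested (0.00682, not passed). Hippocampus libraries held more neuronal RNA than cortex libraries of the same mouse. The progenitor sums overlapped between genotypes.

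Vessel, blood and ventricle markers were uneven. The 5 endothelial markers gave 7.51, 17.9, 11.6 and 22.9 CPM in WT and 29.3, 11, 32.0 and 36.1 in KO libraries, so 3 of 4 KO libraries were above all WT libraries. *Ly6c1* was the only endothelial gene tested (0.0159, not passed, with an unadjusted p under 0.05), and the part of endothelial RNA in the results above was not tested. The 5 markers of perivascular macrophages gave 0.458, 0, 0.110 and 0.223 in WT and 0.0882, 0.125, 0.217 and 0 in KO libraries, with no UMI of *Lyve1* or *Cd163* at all. None of the 5 was common enough to test. The 5 markers of choroid plexus and ependyma gave 4.98, 8.72, 8.48 and 4.01 in WT and 16.1, 2.87, 3.36 and 3.27 in KO libraries, nearly all of it *Ttr* (-0.00414, not passed), and *Tmem212* had no UMI.

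Haemoglobin RNA was uneven between libraries as well. The 4 globin genes summed to 704, 35.8, 32.2 and 313 CPM in WT and 581, 41.8, 49.9 and 88.1 in KO libraries. A few cells made the highest sums: 1 cell each held up to 4207 *Hbb-bs* UMIs in WT mouse 1 hippocampus, 1574 in WT mouse 4 cortex and 1913 in KO mouse 3 hippocampus. By cells, *Hbb-bs* was present in 19.0%, 22.1%, 20.9% and 10.9% of WT and 28.7%, 20.9%, 25.8% and 47.7% of KO cells. Mean log2 values were higher in KO for the 3 globin genes tested (median 0.0658, 0 past the threshold by limma and 2 at an unadjusted p), whereas the summed UMIs were higher in WT. By edgeR and DESeq2, 0 of the 3 passed.

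Beyond the 5 genes, the largest differences did not pass the threshold. They were chosen for an unadjusted p under 0.05 and the same sign in all 4 batches, which fixes their direction. Among those higher in KO, the nuclear noncoding RNA *Neat1* averaged 1.72, 1.86, 0.92 and 0.92 in WT and 1.93, 1.90, 1.84 and 2.01 in KO libraries (difference 0.57, limma adjusted p = 0.832). WT mouse 4 alone was low, and the other libraries lay close together. *Ptgds*, the prostaglandin D2 synthase gene of mature oligodendrocytes, had 7.30, 7.05, 7.39 and 7.37 in WT and 7.71, 7.64, 7.62 and 7.45 in KO libraries (0.33, adjusted p = 0.695). Its libraries did not overlap, although WT mouse 4 and KO mouse 6 came close in cortex.

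The next of the higher genes were smaller in size. *Tppp3*, which encodes a tubulin-binding protein, differed by 0.30 (adjusted p = 0.441), and *Sez6l2*, which encodes a membrane protein, by 0.30 (adjusted p = 0.630) without overlap, at 2.34 to 2.69 in WT and 2.70 to 2.97 in KO. *Fabp5*, a fatty acid binding protein gene, spanned 2.99 to 3.18 in WT and 3.29 to 3.40 in KO (0.25, adjusted p = 0.859). *Fth1*, the ferritin heavy chain gene, spanned 7.08 to 7.22 and 7.23 to 7.45 (0.20, adjusted p = 0.907), so that its genotypes barely separated. *Omg*, the gene of oligodendrocyte myelin glycoprotein, differed by 0.20 (adjusted p = 0.772) with overlap.

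Lower in KO, again by limma and again without passing, were genes of varied function. *Pex5l*, which encodes a protein that sorts ion channels, differed by -0.28 and *Tubb4a*, a tubulin gene, by -0.23, both with overlap because the WT mice themselves differed. Without WT mouse 1 the *Pex5l* difference was 0.0292. *Ank3*, the ankyrin-G gene, differed by -0.20 and *Nipa1*, the gene of a magnesium transporter, by -0.20 (adjusted p = 0.354). *Fam171b* was the only gene of this group without overlap, at 1.68 to 1.75 in WT and 1.41 to 1.67 in KO (-0.17).

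The library of KO mouse 3 cortex lay apart in several of the lower genes. *Zfp91*, a zinc finger gene, averaged 0.62 there against 1.06 to 1.20 in the other 7 libraries (difference -0.17), and *Tle5*, a transcriptional corepressor gene, 1.53 against 1.83 to 2.07 (-0.21). *Nudt4* differed by -0.19 (0.0768 without KO mouse 3), with 1.31 in that library and 1.57 to 2.14 elsewhere. The same library was low in *Olig2*, *Jund* and *Lamp1*, whose values follow with their lists. Whether this library sets the differences of those genes was not tested beyond leaving the mouse out.

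**Figure D3:**
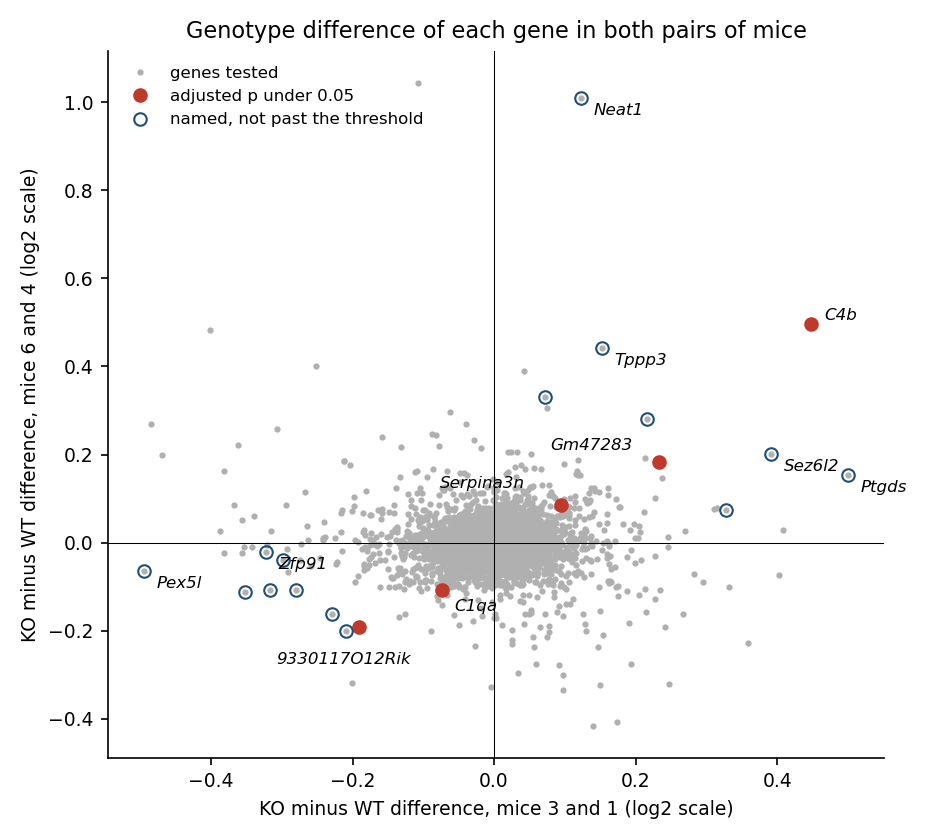
KO minus WT difference of each tested gene on the log2 scale in mice 3 and 1 (horizontal) and in mice 6 and 4 (vertical); red points passed the threshold and ringed points are named but did not pass. *C4b* lies far from the origin in both pairs, while *Neat1* and *Pex5l* are large in 1 pair only.

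The gene lists were read by counts and medians, beside the 5.19% of all genes at an unadjusted p under 0.05, the 50.6% with a higher KO mean and the median of 0.00017. Of the 20 lists by function, only those holding *C4b* or *Serpina3n* had a member past the threshold by limma. With edgeR that was *C4b* alone, and with DESeq2 *C4b*, *Serpina3n* and *Cebpd*. A count of 0 below is by limma in the paired fit of all 4 mice and goes with these counts of the other tools. With 1 mouse left out, in a fit without pairing, 6 of the lists with a count of 0 had members past the threshold: 1 gene each of the STAT3, myelin, mature subtype, interferon and heat shock lists and up to 5 glucocorticoid-responsive genes.

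The genes that the study named for the Oligo1 state include both top genes of this comparison, and since they were chosen on these animals they are no independent support. Of 10 genes, 5 were common enough to test in Oligo3, all 5 had a higher KO mean, 2 rose and 3 had an unadjusted p under 0.05 (median 0.0846). *Serpina3n* reached the filter on low values through its KO cells, as *C1qa* and *C1qb* did through their WT cells, so counts over tested members are no support by themselves. Besides *C4b* and *Serpina3n* these were the transferrin gene *Trf* (0.0846, limma adjusted p = 0.922), the annexin gene *Anxa2* (0.00981, adjusted p = 0.907) and the sorting nexin gene *Snx10* (0.0208, adjusted p = 0.859), which did not pass. *Trf* separated the pairs of mice and not the genotypes, at 5.42, 5.39, 4.92 and 4.85 in WT and 5.51, 5.51, 4.92 and 4.97 in KO libraries. The rest were too sparse in Oligo3, with differences of 0.00166 for *Plvap*, 0.00889 for *Tagln2*, 0.00771 for *Flnc*, 0.00472 for *Emp3* and 0.00414 for *Bcl3*.

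Complement was represented by few genes and had no common direction. The list of 13 genes of complement and its regulators leaves out the C1q subunits, which were counted with microglia and of which *C1qa* (-0.0906) and *C1qb* (-0.0928) were lower in KO. Of the 13, 3 were tested, 3 had a higher KO mean, 1 rose and 2 had an unadjusted p under 0.05 (median 0.10, and 0.0136 with *C1qa* and *C1qb* added). *Cd59a*, a regulator of the membrane attack complex, averaged 0.33, 0.32, 0.34 and 0.31 in WT and 0.50, 0.46, 0.34 and 0.40 in KO libraries (0.10, limma adjusted p = 0.722). Its KO values overlapped WT in the hippocampus of mouse 6. *Cr1l*, a further regulator, differed by 0.0136 (not passed).

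The STAT3 pathway acts downstream of interleukin 6 family cytokines and drives acute-phase genes. Of its 15 genes, 7 were tested, 0 passed, 2 had an unadjusted p under 0.05, both higher, and the median was 0.00121. *Cebpd*, a transcription factor gene of the acute-phase response, averaged 0.0458, 0.0306, 0.0495 and 0.0290 in WT and 0.11, 0.0659, 0.12 and 0.0959 in KO libraries. Its libraries did not overlap, yet it missed the threshold (0.0593, SE 0.00689, limma adjusted p = 0.0720, edgeR 0.0972, DESeq2 0.0271, higher in 4 of 4 batches). By limma it passed in cells without microglial UMIs, with 8 libraries and a replicate block, and with any 1 mouse left out. A *Cebpd* UMI was in 5.09%, 3.84%, 6.70% and 3.39% of WT and 10.7%, 8.11%, 12.6% and 10.5% of KO cells. *Stat3* itself had 0.32, 0.36, 0.44 and 0.40 in WT and 0.43, 0.43, 0.53 and 0.51 in KO libraries (0.0936, adjusted p = 0.337), higher within every batch. *Pim3* (0.0257) and *Jak2* (-0.010) did not pass either.

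Antigen presentation and interferon genes were sparse in these cells. Of 24 genes 6 were tested, 4 were higher in KO, 0 passed and 1 had an unadjusted p under 0.05 (median 0.00840). That was *H2-D1*, a class I heavy chain gene, at 0.0392, 0.0509, 0.0681 and 0.0503 in WT and 0.0928, 0.0574, 0.0922 and 0.11 in KO libraries (0.0362, limma adjusted p = 0.299). It was higher in 4 of 4 batches with overlap at the cortex of KO mouse 3. *Ifi27* (0.0495) and *B2m* (-0.0115) did not pass.

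Among myelin protein genes none passed. Of 12 genes, all tested, 7 had a higher and 5 a lower KO mean, 0 passed, 1 had an unadjusted p under 0.05 (*Omg*), and the median was 0.0172. *Cldn11*, the gene of the tight junction protein of myelin, differed by 0.13, *Mobp* by 0.11 and *Mal* by 0.0673, and *Mog*, *Mag* and *Mbp* by -0.0137, -0.0409 and 0.0210. None of these passed, and their libraries overlapped. *Mobp* changed sign when KO mouse 6 was left out.

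No gene of lipid synthesis passed, and the sign of the list medians differed between batches. Of 21 cholesterol synthesis genes 20 were tested, 16 had a higher KO mean, 0 passed and 3 had an unadjusted p under 0.05, all higher (median 0.0187). *Idi1*, an isomerase of the mevalonate pathway, differed by 0.13 (limma adjusted p = 0.483), *Fdps* by 0.0994, *Msmo1* by 0.0795 and *Ebp* by 0.0551, none past the threshold. Without WT mouse 1 the *Fdps* difference was -0.00289. The median of this list was 0.0702, 0.050, -0.0368 and 0.0290 in batches 3 to 6, so the hippocampus of mice 4 and 6 went the other way.

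Of the genes of fatty acid and sphingolipid synthesis, all 18 were tested, 15 had a higher KO mean, 0 passed and 1 had an unadjusted p under 0.05 (median 0.0355). *Elovl7* differed by 0.10, *Fa2h*, the hydroxylase of myelin galactolipids, by 0.0980, *Scd1* by 0.0693 and *Ugt8a* by 0.0529. The batch medians were 0.0558, 0.0577, -0.0557 and 0.0479, again negative in batch 5. In that batch the KO cells had 2660 UMIs fewer per cell than the WT cells, and the part of depth in these medians was not tested.

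Sterol sensing and transport had no gene past the threshold. Of 9 sensing and uptake genes 7 were tested, 4 were higher in KO, 0 passed (0 at an unadjusted p) and the median was 0.00259, with 0.0287 for *Scap*, 0.0184 for *Srebf1* and -0.0148 for *Stard4*. Of 14 cholesterol transport genes 12 were tested, 8 were higher, 0 passed (0 at an unadjusted p) and the median was 0.0140. *Apod*, an apolipoprotein gene, was the largest of these at 4.39, 4.31, 3.85 and 3.82 in WT and 4.59, 4.53, 4.00 and 4.06 in KO libraries (0.20, limma adjusted p = 0.907). The pair of mice set its level more than genotype did. Its difference was -0.0637 without KO mouse 3 and -0.0533 without WT mouse 4. *Abca2* (0.0958), *Npc1* (-0.0378) and *Clu* (0.0335) did not pass.

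Iron and lysosomal genes had no member past the threshold. Of 13 iron genes 8 were tested, 5 were higher in KO, 0 passed and 1 had an unadjusted p under 0.05, *Fth1* (median 0.0224), while *Ftl1*, the ferritin light chain gene, differed by 0.0671 and the transferrin receptor gene *Tfrc* by 0.0265. Of 19 lysosomal genes, all tested, 14 were higher, 0 passed (0 at an unadjusted p) and the median was 0.0107. *Lamp1*, a lysosomal membrane protein gene, differed by -0.16, with 2.92 in the cortex of KO mouse 3 against 3.27 to 3.54 elsewhere. *Cd63* (0.11), *Lamp2* (0.0718) and *Psap* (0.0625) did not pass.

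The median of the heat shock genes had opposite signs in the pairs of mice, which was not tested. Of 11 heat shock genes 9 were tested, 7 were higher in KO, 0 passed (0 at an unadjusted p) and the median was 0.0197, with 0.10 and 0.15 in the batches of mice 1 and 3 and -0.0458 and -0.0109 in those of mice 4 and 6. The chaperone genes *Hsp90aa1*, *Cryab*, *Hsp90ab1* and *Hspe1* differed by 0.22, 0.12, 0.10 and 0.0765. *Hsp90aa1* was high in KO mouse 3 (4.47 and 4.54) and alike in the other mice (4.03 to 4.16). Of 18 genes of the unfolded protein and integrated stress responses 12 were tested, 7 were higher, 0 passed (0 at an unadjusted p) and the median was 0.00813, with *Calr* at 0.0495, *Sdf2l1* at 0.0458, *Hspa5* at -0.0456 and *Ddit4* at 0.0262.

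Immediate early genes, which dissociation can induce, had no member past the threshold. Of 18 genes 7 were tested, 3 were higher and 4 lower in KO, 0 passed, 2 had an unadjusted p under 0.05, 1 each way, and the median was -0.000716. *Jund* differed by -0.20 and was 1.96 in the cortex of KO mouse 3 against 2.25 to 2.75 elsewhere. *Klf6* (0.0526), *Jun* (-0.0246) and *Dusp1* (-0.0235) did not pass.

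Glucocorticoid-responsive genes had no member past the threshold, and the largest difference among them rested on 1 mouse. With a mouse left out, 5 (without KO mouse 3), 2 (WT mouse 4), 1 (KO mouse 6) and 0 (WT mouse 1) of them passed by limma. Of 17 genes 15 were tested, 13 were higher in KO, 0 passed and 3 had an unadjusted p under 0.05, all higher (median 0.0262). *Sgk1*, a kinase gene induced by glucocorticoids, averaged 0.55, 0.49, 0.84 and 0.69 in WT and 0.42, 0.42, 1.82 and 1.79 in KO libraries (0.47, limma adjusted p = 0.907). Only KO mouse 6 was high, in both tissues, and without it the difference was -0.23. *Cdkn1a*, a cell cycle inhibitor gene, had 0.24, 0.28, 0.49 and 0.56 in WT and 0.35, 0.46, 0.57 and 0.71 in KO libraries (0.13, adjusted p = 0.148), higher within every batch. Without WT mouse 1 its difference was -0.00191. *Mt1* (0.22) and *Klf9* (-0.0706) did not pass. The list's median was -0.0403 and -0.0165 in batches 3 and 4 and 0.0635 and 0.11 in batches 5 and 6.

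TGF-beta signalling is a route by which microglia are known to act on oligodendrocytes. Of its 24 genes 13 were tested, 4 had a higher and 9 a lower KO mean, 0 passed, 2 had an unadjusted p under 0.05, 1 each way, and the median was -0.0132. *Smad2*, an effector of the pathway, averaged 0.13, 0.12, 0.16 and 0.14 in WT and 0.0812, 0.0616, 0.0789 and 0.10 in KO libraries (-0.0556, SE 0.00816, limma adjusted p = 0.148), lower in 4 of 4 batches without overlap, and it passed with 8 libraries and a replicate block. *Smad4*, its partner, differed by 0.0440 and the inhibitory *Smad7* by -0.11, and *Smurf2* by -0.0282. *Smad2*, *Smad4* and *Smad7* all lie on chromosome 18, as *Csf1r* does.

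Genes of oligodendrocyte stages had no member past the threshold. Of 12 genes of mature subtypes 11 were tested, 7 were higher in KO, 0 passed and 2 had an unadjusted p under 0.05 (median 0.0173), with *Ptgds* and *Apod* given above, *Il33* at -0.14 and *Selenop* at 0.12. Of 8 genes of newly formed oligodendrocytes 6 were tested, 4 were higher, 0 passed and 1 had an unadjusted p under 0.05 (median 0.00340), with *Enpp6* at 0.0470, *Itpr2* at 0.0331, *Fyn* at -0.0162 and *Bcas1* at -0.0118. All 10 transcription factor genes of the lineage were tested, 7 were higher, 0 passed and 1 had an unadjusted p under 0.05 (median 0.0345). *Nkx6-2* differed by 0.14, *Sox10* by 0.0669 and *Myrf* by 0.0615. *Olig2* differed by -0.10, with 0.70 in the cortex of KO mouse 3 and 1.05 to 1.15 elsewhere.

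Mitochondrially encoded genes had no member past the threshold. All 13 were tested, 8 were higher in KO, 0 passed (0 at an unadjusted p) and the median was 0.0311. *mt-Nd4l* differed by -0.17 and *mt-Nd2*, *mt-Atp6* and *mt-Co3* by 0.14, 0.0961 and 0.0865, none past the threshold. Libraries overlapped in each.

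**Figure D4:**
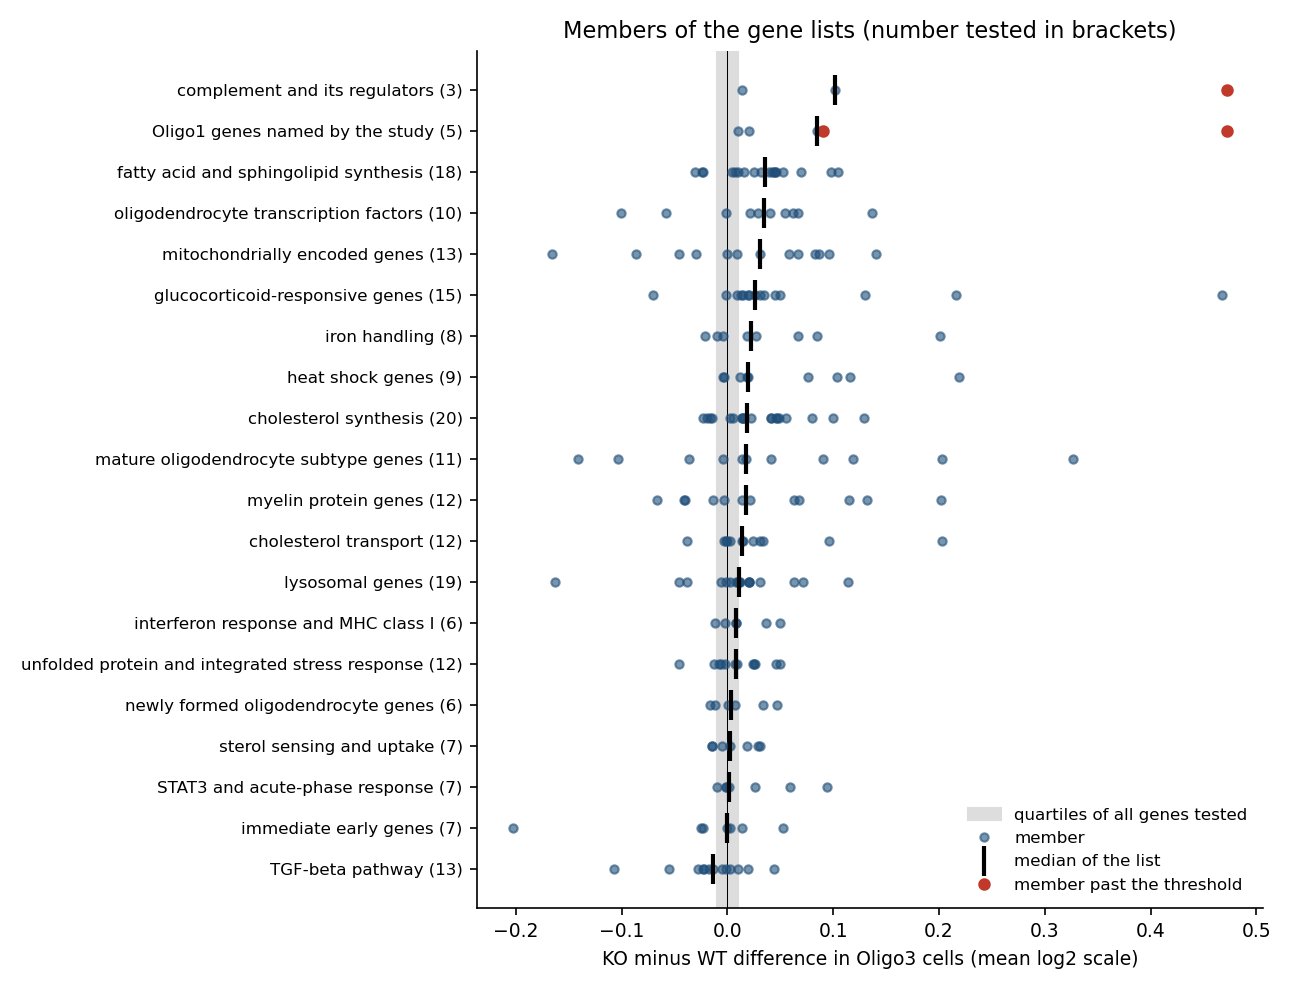
KO minus WT difference in Oligo3 cells of the tested members of 20 gene lists (points), their median (black marks) and the quartiles of all 9135 genes (grey band, -0.0103 to 0.0101). List medians lie between -0.0132 for the TGF-beta pathway and 0.10 for complement, whose list leaves out the C1q subunits (0.0136 with *C1qa* and *C1qb*), and the far right point of the complement list is *C4b* at 0.47.

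The 5 genes past the threshold had the same direction in hippocampus and cortex. *C4b* differed by 0.50 in hippocampus and 0.45 in cortex, *Serpina3n* by 0.10 and 0.0760, *Gm47283* by 0.24 and 0.18, *9330117O12Rik* by -0.23 and -0.15, and *C1qa* by -0.0742 and -0.11. The interaction of genotype and tissue, tested by limma with the mouse as replicate, passed for 0 of 9135 genes (0%), with 665 at an unadjusted p under 0.05 (7.28%) and a lowest adjusted p of 0.686. edgeR and DESeq2 were not run for it. The lowest adjusted p was that of *Cers2*, a ceramide synthase gene named for it after its values were seen, which differed by -0.0793 in hippocampus and 0.17 in cortex. On log2 of the mean plus 0.1 the interaction passed for 42 genes. For *C4b* the tissues differed by 0.0518 (SE 0.15, adjusted p = 0.973), an error that leaves room for a sizeable tissue effect.

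Oligo3 holds the finer clusters 3 and 5 of the deposited annotation, and the genotype difference was present in both. Cluster 3 held 64.7% of Oligo3 cells in KO and 60.7% in WT mice (exact p = 0.667, by a test that ignores the pairs of mice). Within each batch the KO share was higher, by 5.97, 4.28, 3.33 and 2.44 percentage points in batches 3 to 6. *C4b* differed by 0.39 in finer cluster 3 and 0.62 in finer cluster 5, where KO libraries averaged 0.96, 0.40, 0.68 and 0.71 against 0.0635, 0.0766, 0.0970 and 0.0535 in WT. *Serpina3n* differed by 0.0866 and 0.0926, *9330117O12Rik* by -0.18 and -0.22, *Gm47283* by 0.20 and 0.22 and *C1qa* by -0.0938 and -0.0864. No test was made between the finer clusters.

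Oligo3 had smaller genotype differences of *C4b* and *Serpina3n* than Oligo2, and those against Oligo4 did not pass the test. *C4b* differed by 0.47 in Oligo3, 1.05 in Oligo2 (2382 cells) and 1.24 in Oligo4 (1062 cells), and *Serpina3n* by 0.0901, 0.47 and 0.30. *Fabp5* differed by 0.25 in Oligo3, 0.0265 in Oligo2 and 0.29 in Oligo4, more in Oligo3 than in Oligo2 only. The clusters were made from these expression values in cells of both genotypes, so the split of KO cells between clusters can itself shape such differences.

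The difference between Oligo3 and Oligo2 was tested by limma on the per-mouse values and passed for 3 of 9259 genes (0.0324%), 1 higher (0.0108%) and 2 lower (0.0216%), with 643 at an unadjusted p under 0.05 (6.94%). The KO minus WT difference of *C4b* was smaller in Oligo3 by -0.58 (SE 0.0294) and that of *Serpina3n* by -0.38 (SE 0.0177), both with an adjusted p of 0.00526 and the same order in 4 of 4 batches. Both calls were lost after thinning to 5000 UMIs (-0.56 and -0.37, adjusted p = 0.0637) and without a filter on low values (adjusted p = 0.592). By batch, *C4b* differed by 1.38, 0.79, 1.09 and 0.96 in Oligo2, above the 0.62, 0.28, 0.38 and 0.61 of Oligo3. *Fabp5* differed more in Oligo3, by 0.22 (SE 0.0170, adjusted p = 0.0409), with -0.14, 0.0905, 0.0997 and 0.0539 by batch in Oligo2 and 0.23, 0.20, 0.40 and 0.16 in Oligo3. Its KO cells were thus higher than WT in every batch of Oligo3 and in 3 of 4 batches of Oligo2. The *Fabp5* call was also lost after thinning (0.18, limma adjusted p = 0.866) and without a filter (adjusted p = 0.592). With any 1 mouse left out none of the 3 genes passed, although *C4b* kept a difference of -0.62 to -0.55 and *Serpina3n* one of -0.40 to -0.37.

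Against Oligo4, 0 of 9295 genes passed by limma (0%), with 701 at an unadjusted p under 0.05 (7.54%), and edgeR and DESeq2 were not run. *C4b* had the lowest adjusted p, 0.185, with a difference of -0.77 (SE 0.0677), and it passed when KO mouse 3 (-0.64) or KO mouse 6 (-0.90) was left out. In shares of cells, *C4b* was present in 6.87% of WT and 32.4% of KO cells of Oligo3, 7.16% and 50.9% in Oligo2, and 5.77% and 60.4% in Oligo4, at median depths of 10480 and 10504.5, 12136 and 11807, and 13530 and 12062 UMIs. WT shares of *C4b* were alike in the 3 clusters, and KO shares lowest in Oligo3, whose cells were also the shallowest. In the same order of clusters, *9330117O12Rik* was in 35.2% and 16.1%, 41.1% and 23.9%, and 35.7% and 13.3% of WT and KO cells. *Gm47283* was in 21.8% and 41.9%, 22.3% and 41.3%, and 28.9% and 44.9%. *C1qa* was in 10.5% and 0.0282%, 9.62% and 0.0906%, and 10.6% and 0.0933%. Those genes thus had the same direction in Oligo2 and Oligo4 as in Oligo3.

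**Figure D5:**
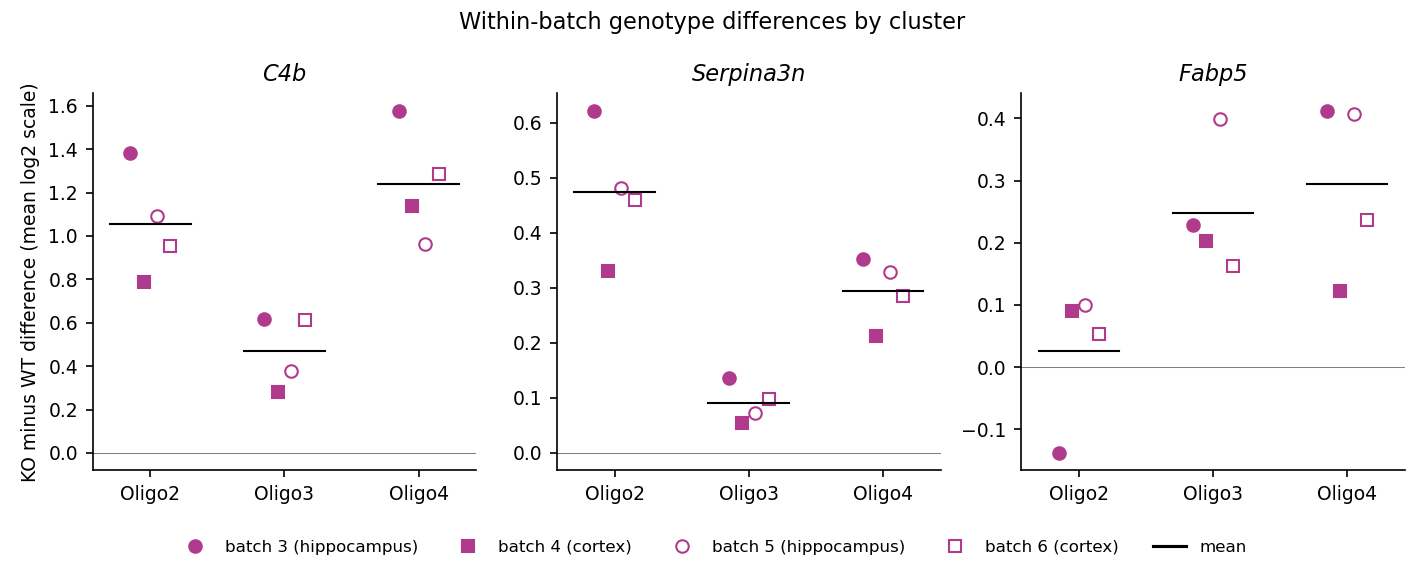
KO minus WT difference of *C4b*, *Serpina3n* and *Fabp5* in Oligo2, Oligo3 and Oligo4 on the log2 scale, 1 point per batch. *C4b* lies between 0.28 and 0.62 in Oligo3 and between 0.79 and 1.38 in Oligo2, while *Fabp5* in Oligo2 is near 0.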

How the data were processed

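Single-cell libraries of 8 samples (10x Genomics 3′ v3.1 chemistry) were processed by the authors with Cell Ranger 5.0.0 on mm10, as the submitters' processing notes state. The deposited log2 values are log2 of UMI count over size factor plus 1, filtered by the authors to oligodendrocytes, not batch corrected. The authors chose scatter gates to exclude doublets, and no doublet caller was run here. UMI counts were recovered from the deposited values and size factors (42420937 values, all whole within 0.001). Other deposited per-cell columns used were counts and percentages computed by the authors, with cluster and batch labels as scores without unit.

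Means per library and mouse were tested with limma 3.58.1 (lmFit, eBayes with trend, pair of mice as covariate, 1 residual degree of freedom, two-sided, Benjamini-Hochberg) over the 9135 genes detected in 5% or more of Oligo3 cells, leaving 9698 untested. Mice were paired by shared batches and exit age, and over 9135 genes the deviations of paired mice had a correlation of 0.736. Alternatives included edgeR 4.0.16 and DESeq2 1.42.0 on UMI sums (R 4.3.3). Shares, exact permutation tests and thinning used Python 3.11.15 with scipy 1.17.1, numpy 2.4.6 and pandas 2.3.3. The limma and edgeR steps were tested on simulated data.

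Named genes were *Csf1r* and the 10 Oligo1 genes of the study, up to 10 per direction with the largest differences and the same sign in 4 batches (those past the threshold first, then those at an unadjusted p under 0.05), list members that passed, up to 4 members of each list with the largest differences, and genes of the tests between tissues and clusters. The cluster members, 20 function lists and 9 marker lists were chosen with earlier results of these data known. Values of some members of these lists are not reported.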

Additional observations from a re-analysis of the deposited data

Results flagged for a closer look

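Among 42 groups of 4 libraries, 10 had a library whose gap to its nearest neighbour exceeded the critical share of the group's range for 4 values, and chance gives this in about 1 of 20 groups. WT mouse 4 cortex had a microglial UMI in 76.6% of cells, against 53.7% to 55.8% in the other WT libraries. WT mouse 4 hippocampus had the highest WT value of *C4b* (0.12), of *Serpina3n* (0.0405) and of cells with both (1.71%, others 0.0542% to 0.303%). KO mouse 3 cortex had the lowest KO share of cells with both, 4.64%, against 7.67% to 8.28%.

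Single cells set KO mouse 6 hippocampus apart in *C1qa* (0.00087) and KO mouse 3 cortex in *Csf1r* (0.000939), where the other KO libraries were at 0. Marker sums stood apart in KO mouse 6 hippocampus for astrocytes (259 CPM) and in KO mouse 3 hippocampus for erythrocytes (581) and for choroid plexus and ependyma (16.1).

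The genotype difference itself differed between Oligo3 and Oligo2 by limma for *Fabp5* (0.22, adjusted p = 0.0409), *Serpina3n* (-0.38) and *C4b* (-0.58, both adjusted p = 0.00526). Explanations were not tested.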

How the results depend on the processing

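*C4b* passed in 14 of 17 alternatives and kept its direction in all 17, the exceptions being hippocampus only, cortex only and eBayes without trend. *9330117O12Rik* passed in 8 of 17, *Gm47283* in 5 of 17, *Serpina3n* in 5 of 14 and *C1qa* in 4 of 13 in which they could be tested, all with their direction kept.

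The 5 genes past the threshold became 0 in hippocampus alone (396 at an unadjusted p under 0.05 by limma), 0 in cortex alone (450) and 0 without the trend (569). The count was 1 with all cells of a mouse weighted equally, 1 after thinning, 1 without cells carrying both transcripts (a choice of cells that uses *C4b* itself), 2 on log2 of the mean plus 0.1 and 2 on log2 of the mean plus 1 (only *C4b* among the 5), 4 without a filter (only *C4b* among the 5, with *Serpina3n* at an adjusted p of 0.0613 and *9330117O12Rik* at 0.0504), 3 with a filter of 10% and 8 with DESeq2. The replicate block mattered: without the pairing of mice 1 gene passed (*C4b*, adjusted p = 0.0388, 65 at an unadjusted p) and the other 4 lost their call, and with 8 libraries, batch and the pair as replicate block 13 did, where the estimated correlation was 0 and libraries of a mouse counted as independent. Leaving out a mouse gave 23 to 40 genes, in a fit without pairing where the lone mouse is assumed to vary like the others.

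Between tissues, 0 genes became 42 on log2 of the mean plus 0.1 (0 to 0 without a mouse). Between Oligo3 and Oligo2, 3 genes became 13 with the 10% filter, 1 in hippocampus, 1 without cells carrying both transcripts, 0 without a filter (1429 at an unadjusted p by limma) and 0 after thinning (410), and 0 to 0 without a mouse. Between Oligo3 and Oligo4, 0 genes became 8 with equal weight per cell, 5 with the 10% filter, 31 and 13 on log2 of the mean plus 0.1 and plus 1, and 0 to 1 without a mouse. The cause was not tested.

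Of 915 other differences of 55 named genes, 859 kept direction and side of the threshold, 42 no longer passed, 6 newly passed and 8 reversed. Those were *Hbb-bs* (-0.87 with DESeq2, -0.83 with edgeR, -0.92 and -0.47 on log2 of the mean plus 0.1 and plus 1) and *Hba-a1* (-0.65, -0.52, -0.61 and -0.21). Without a mouse the sign turned for *Trf* (-0.20 to 0.37), *Anxa2* (-0.0106 to 0.0302), *Pex5l* (-0.59 to 0.0292), *Nudt4* (-0.46 to 0.0768), *Mobp* (-0.0466 to 0.28), *Fdps* (-0.00289 to 0.20), *Apod* (-0.0637 to 0.47), *Sdf2l1* (-0.0362 to 0.13), *Sgk1* (-0.23 to 1.16), *Cdkn1a* (-0.00191 to 0.26) and *Itpr2* (-0.0128 to 0.0791), which lose their partner in the pair. Of 420 list medians 297 moved by less than the spread between the pairs of mice.

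With 2 mice per genotype and 1 residual degree of freedom the limma test borrows its spread from other genes, and single-gene calls depend on the settings above, that of *C4b* in 3 of 17. Genes seen in few cells rest on counting error as well as on mice. Weighting of finer clusters and the depth values without a mouse were chosen after seeing the data. Without the block *Fabp5* also lost its call between Oligo3 and Oligo2, where *C4b* and *Serpina3n* kept theirs, and the counts of 0 between tissues and against Oligo4 stayed at 0.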
